A study of Mus musculus with 8 samples.

Results

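Expression of 9 genes of superoxide production and removal was compared between WT and miR-21-/- tumor-associated macrophages (TAMs). The genes were taken by their symbols from the deposited table of 53247 genes. 5 of them encode the phagocyte NADPH oxidase (Cybb, Cyba, Ncf1, Ncf4 and Rac2) and 4 encode enzymes that remove superoxide or hydrogen peroxide (Sod1, Sod2, Cat and Gpx1). LLC cells, a mouse Lewis lung carcinoma line, were implanted s.c. into C57/BL6 mice aged 8 weeks that were WT or null for miR-21. After 14 days, at 10 weeks of age, TAMs positive for CD45, CD11b, MHC II and F4/80 were sorted from the digested tumors, and mRNA libraries of 4 samples per genotype were sequenced. The null allele was present in all cells of the host, whereas the implanted LLC cells were the same in both genotypes. The labels call the samples biological replicates. In the title of the first miR-21-/- sample 2 numbers are joined, and the labels do not say whether mice were pooled.

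The phagocyte NADPH oxidase moves electrons from NADPH across a membrane to oxygen, which gives superoxide. Its membrane core is a pair of proteins, gp91phox (Cybb) and p22phox (Cyba). The core is switched on when cytosolic subunits, among them p47phox (Ncf1) and p40phox (Ncf4), join it together with a Rac GTPase. Superoxide is turned into hydrogen peroxide by superoxide dismutases in the cytosol (Sod1) and in mitochondria (Sod2). Catalase (Cat), a peroxisomal enzyme, and the selenoenzyme glutathione peroxidase 1 (Gpx1) break hydrogen peroxide down. In macrophages this system serves the killing of microbes and oxidant signaling.

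Values were deposited in CPM, the reads of a gene scaled to a common library total. Read depth, taken from the smallest step between low values, was 2.02e+07 to 3.33e+07 reads per sample, and 1 read was worth 0.0300 to 0.0495 CPM. Log2(CPM + 1) values were fitted with limma over 13850 genes, those whose mean over the samples reached 1 CPM relative to the column totals. The threshold was an adjusted p at or under 0.005 with a fold change over 1.5. All fold changes are miR-21-/- over WT on this scale, and their median over all tested genes was -0.10. Mir21a was listed at 0.0001 CPM, the lowest value of the table, in all 8 samples, so the genotype could not be checked by it. Vmp1, whose transcript unit holds Mir21a, had 115 to 133 CPM in WT TAMs and 373 to 426 CPM in miR-21-/- TAMs. Summed over 6 genes of the sort, levels ranged from 10904 to 14108 CPM in WT TAMs and from 9249 to 14784 CPM in miR-21-/- TAMs. Adgre1, the gene of F4/80 among them, had 542 to 583 CPM in WT and 399 to 466 CPM in miR-21-/-, without overlap (limma adjusted p = 0.00140, under the fold change limit).

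The sequences show where transcripts of these genes match the seed of miR-21. The mature miR-21a-5p (chr11:86584120-86584141, minus strand, GRCm38, from RefSeq) is printed first with its seed, bases 2 to 8, in capitals. Below it stand the stretches of the 3′ UTRs of Cybb, Ncf1 and Sod2 that match bases 2 to 7 of the miRNA, with the match in capitals.
miR-21a-5p: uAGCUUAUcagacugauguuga
Cybb 3′ UTR: agttccagtctgTAAGCTgaaaaagaagaa
Ncf1 3′ UTR: aacatggaagtgTAAGCTgaataaatcttt
Sod2 3′ UTR: caggcttagcggTAAGCTgatgagacttcc

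None of the 9 genes had a match of 7 or 8 bases to the seed in its longest annotated 3′ UTR, which ranged from 72 bases in Sod1 to 4963 bases in Sod2. Such a match was present in 12.4% of the 11449 tested genes whose 3′ UTR is annotated, and 26.6% had a match of at least 6 bases. The matches of 6 bases in Cybb, Ncf1 and Sod2, 1 in each, are a description of the sequence and do not show that the miRNA binds there.

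For the membrane core, expression of Cybb (chrX:9435252-9487771, minus strand) was 822, 850, 771 and 967 CPM in WT TAMs and 1127, 1004, 1080 and 1128 CPM in miR-21-/- TAMs. Every miR-21-/- value lay above every WT value. The log2 fold change was 0.35 (standard error 0.08, limma adjusted p = 0.00882), under the fold change limit. Cyba (chr8:122424776-122432930, minus strand) had 196, 210, 228 and 210 CPM in WT TAMs and 249.4, 253, 228 and 235 CPM in miR-21-/- TAMs. These groups were apart only by a narrow margin, 227.9 CPM in the highest WT sample against 228.3 CPM in the lowest miR-21-/- sample. The log2 fold change of Cyba was 0.19 (standard error 0.06, limma adjusted p = 0.0308). Cyba shares its locus with Gm20388 on the opposite strand, a gene of 86.5 ± 5.93 CPM in WT TAMs and 116 ± 8.95 CPM in miR-21-/- TAMs (mean ± SD of 4 samples each), and whether the counting used the strand is not given in the sources used here.

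Among the cytosolic subunits, Ncf1 (chr5:134220053-134229625, minus strand), the organizer of the complex, had 139, 133, 138 and 130 CPM in WT TAMs and 182, 172, 149 and 161 CPM in miR-21-/- TAMs. The groups did not overlap, and the log2 fold change was 0.29 (standard error 0.07, limma adjusted p = 0.00677). Ncf1 overlaps Gtf2ird2 on the opposite strand, which had 7.82 to 11.2 CPM. Ncf4 (chr15:78244801-78262580, plus strand), whose product binds a phosphoinositide of the phagosome membrane, had 99.8, 105, 96.0 and 92.4 CPM in WT TAMs and 96.7, 80.0, 78.9 and 81.8 CPM in miR-21-/- TAMs. Here miR-21-/- replicate 1 lay within the WT range, and the log2 fold change was -0.22 (standard error 0.07, limma adjusted p = 0.0373).

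Rac2 (chr15:78559169-78572783, minus strand), the Rac GTPase of blood cells, had 226, 239, 246 and 280 CPM in WT TAMs and 190, 180, 201 and 235 CPM in miR-21-/- TAMs. The miR-21-/- replicate 4 value lay among the WT values, and the log2 fold change was -0.30 (standard error 0.09, limma adjusted p = 0.0288). Rac1, its widely expressed relative, had 422 to 449 CPM in WT TAMs and 402 to 455 CPM in miR-21-/- TAMs. The log2 fold change of Rac1 was 0.00 (standard error 0.06, limma adjusted p = 0.990). The gene listed as BC017643, which RefSeq names Cybc1 and whose product is needed to make the membrane core, had 79.1 to 86.1 CPM in WT TAMs and 70.4 to 77.9 CPM in miR-21-/- TAMs, a log2 fold change of -0.15 (limma adjusted p = 0.0429).

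**Figure D1:**
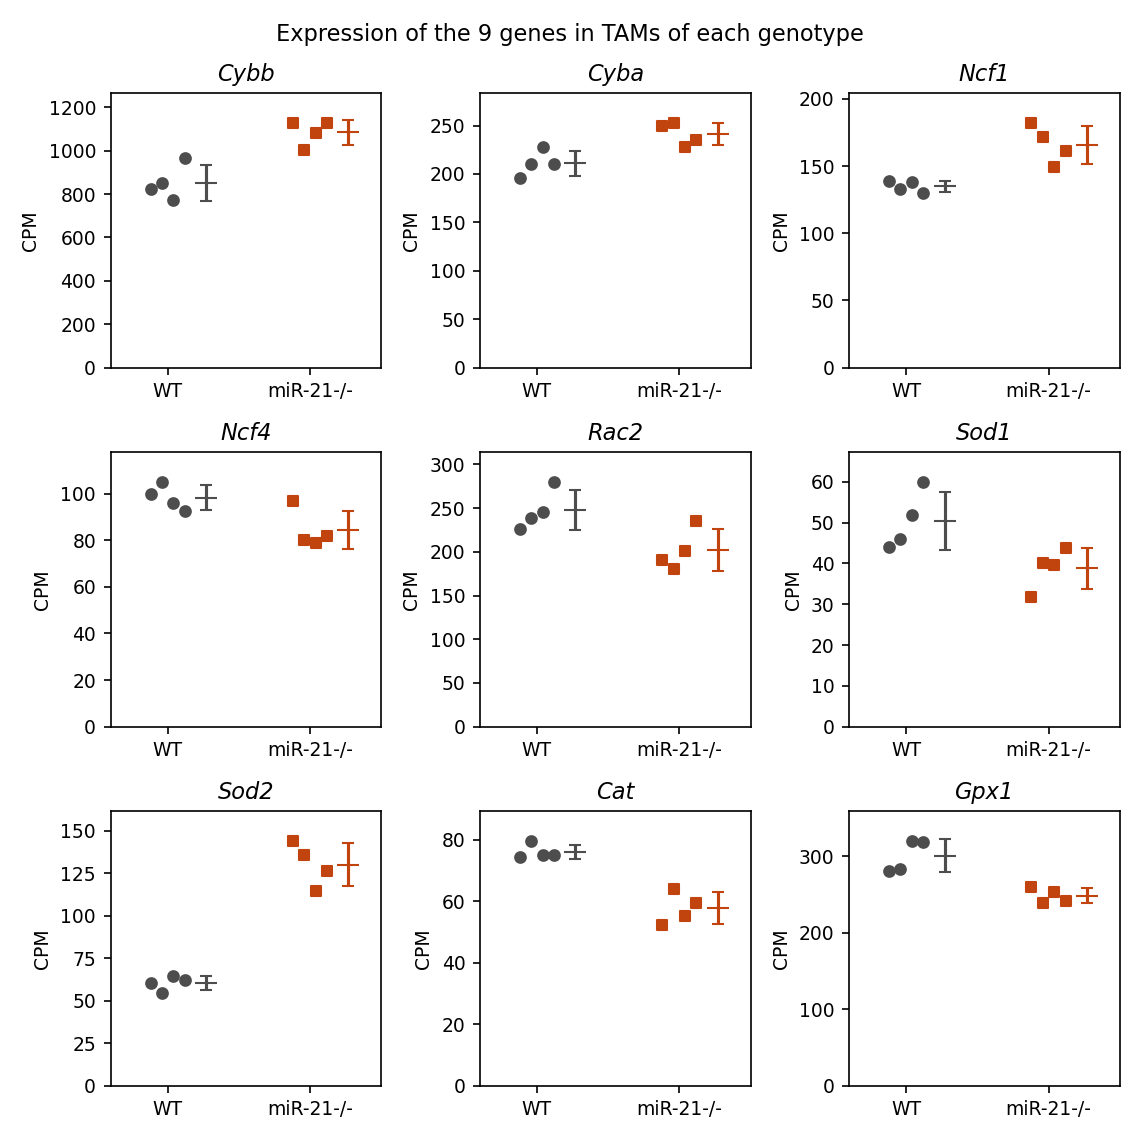
Expression of each of the 9 genes in CPM (vertical axes, from 0) in the 4 WT (circles) and 4 miR-21-/- (squares) samples, with the mean and SD beside the points. Sod2 stands at 54.4 to 64.5 CPM in WT TAMs and 114 to 144 CPM in miR-21-/- TAMs, while Ncf4 and Rac2 overlap between the genotypes.

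None of the 5 oxidase genes passed the threshold. All 5 had a limma adjusted p at or under 0.05 without a fold change limit, 3 of them higher (Cybb, Cyba and Ncf1) and 2 lower (Ncf4 and Rac2) in miR-21-/- TAMs. Of the 5, Ncf1 alone kept this in all 16 alternatives. Ncf4 and Rac2 lost it when rescaled by the median of ratios, Cybb, Cyba and Ncf4 under quantile normalization, and Cyba also with the replicate block (limma adjusted p = 0.0658). By that rule 36.0% of all tested genes were called, 9.49% higher and 26.5% lower. Neutrophils also carry this oxidase. The sum of 13 neutrophil genes was 1122 to 2263 CPM in WT TAMs and 801 to 1156 CPM in miR-21-/- TAMs. Of the 10 tested, 1 (Mmp8) was lower in miR-21-/- TAMs past the threshold, against 4.23% of all tested genes. Mmp9 alone ranged from 166 to 1158 CPM in WT, and without it, a choice made after seeing the data, the sums did not overlap, at 823 to 1238 CPM in WT TAMs and 609 to 790.0 CPM in miR-21-/- TAMs. Ly6g (0.31, limma adjusted p = 0.270) and Ltf (0.12, limma adjusted p = 0.774), each at most 3.17 CPM, had higher values and did not pass. Camp, Mpo and Elane, genes of neutrophil granules, did not exceed 0.336 CPM in any sample. Other genes of the list were abundant, with S100a8 at 146 to 260 CPM in WT TAMs and 108 to 160 CPM in miR-21-/- TAMs and S100a9 at 249 to 483 and 193 to 276 CPM, both overlapping. Csf3r, the receptor for the growth factor of granulocytes, had 298 to 338 and 217 to 265 CPM without overlap (limma adjusted p = 0.00259, under the fold change limit). The part of these cells in the oxidase values was not tested. In such bulk samples, fewer cells of a type and less RNA per cell cannot be told apart.

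Sod2 (chr17:13007839-13018119, plus strand), the manganese superoxide dismutase of mitochondria, was the only 1 of the 9 genes past the threshold. It had 60.2, 54.4, 64.5 and 62.1 CPM in WT TAMs and 144, 136, 114 and 126 CPM in miR-21-/- TAMs. The lowest miR-21-/- sample was far above the highest WT sample, and expression rose 2.13-fold (log2 fold change 1.09, standard error 0.08, limma adjusted p = 1.62e-05). Among all tested genes, 7.12% passed the threshold, 2.89% higher and 4.23% lower. The log2 fold change of Sod2 ranged from 0.99 to 1.20 over the processing alternatives and from 1.04 to 1.15 when each sample was left out in turn, past the threshold each time.

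Sod1 (chr16:90220742-90226322, plus strand), the copper and zinc enzyme of the cytosol, lay in the other direction. It had 44.1, 45.9, 51.8 and 60.0 CPM in WT TAMs and 31.7, 40.1, 39.7 and 43.7 CPM in miR-21-/- TAMs. The highest miR-21-/- sample came close to the lowest WT sample without overlap, and the log2 fold change was -0.37 (standard error 0.11, limma adjusted p = 0.0297). Within each library the log2 ratio of Sod2 to Sod1, taken from CPM + 1, was 0.26 ± 0.16 in WT and 1.72 ± 0.30 in miR-21-/- TAMs (SD, n = 4 each). Such a ratio is hardly moved by the scaling of a library, and it differed by 1.46 (exact permutation test over 70 assignments, two-sided, p = 0.0286, the smallest p that 4 against 4 samples allow, adjusted p = 0.0857 over 3 ratios, above 0.05). Without the logarithm, Sod2 was 1.03 to 1.36 times Sod1 in WT and 2.84 to 4.43 times Sod1, both as CPM + 1, in miR-21-/- TAMs. The exon lengths differ, at 5977 bases for Sod2 and 641 for Sod1, so this ratio does not rank the 2 genes. Per kb of exon, the medians were 10.2 CPM for Sod2 and 76.2 CPM for Sod1 in WT, and 21.9 and 62.2 CPM in miR-21-/- TAMs.

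Both peroxide-removing enzymes among the 9 had lower values in miR-21-/- TAMs. Cat (chr2:103453849-103485160, minus strand) had 74.5, 79.7, 75.0 and 75.2 CPM in WT TAMs and 52.2, 64.2, 55.2 and 59.5 CPM in miR-21-/- TAMs. The groups were clearly apart, with a log2 fold change of -0.40 (standard error 0.07, limma adjusted p = 0.00165). Cat and Sod2 were the 2 genes with a limma adjusted p at or under 0.005, a rule that called 14.3% of all tested genes. Cat did not meet it when rescaled by the median of ratios (limma adjusted p = 0.00629), where Cybb, Cyba and Ncf1 did, nor without a filter on low values (0.00697), nor without WT replicate 2 (0.00687), WT replicate 3 (0.00521) or miR-21-/- replicate 3 (0.00655). Gpx1 (chr9:108338903-108340343, plus strand) had 281, 284, 320 and 319 CPM in WT TAMs and 260, 239, 253 and 241 CPM in miR-21-/- TAMs. Its groups did not overlap, and the log2 fold change was -0.27 (standard error 0.06, limma adjusted p = 0.00768). The log2 ratio of Gpx1 to Cat was 1.97 ± 0.13 in WT and 2.09 ± 0.18 in miR-21-/- TAMs (SD, n = 4 each; exact permutation p = 0.343, adjusted p = 0.343), a difference not larger than the spread. The log2 ratio of Cybb to Cyba was likewise 2.01 ± 0.19 and 2.16 ± 0.12 (exact permutation p = 0.257, adjusted p = 0.343, n = 4 each).

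**Figure D2:**
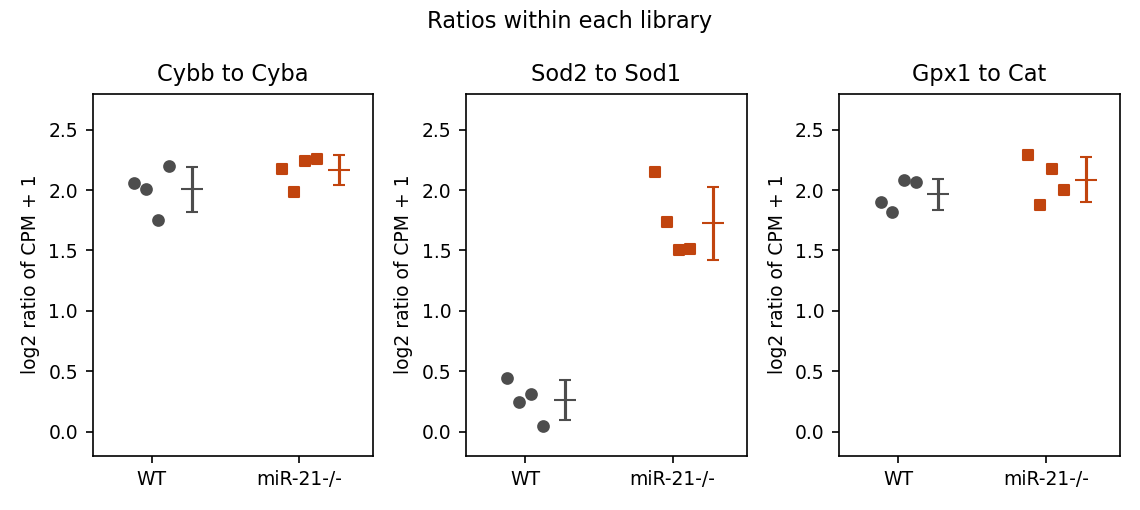
Log2 ratio of CPM + 1 within each library (vertical axes) for 3 pairs of genes in WT (circles) and miR-21-/- (squares) samples, with mean and SD. The ratio of Sod2 to Sod1 lies between 0.05 and 0.44 in WT and between 1.504 and 2.15 in miR-21-/- TAMs, while the other ratios overlap.

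**Figure D3:**
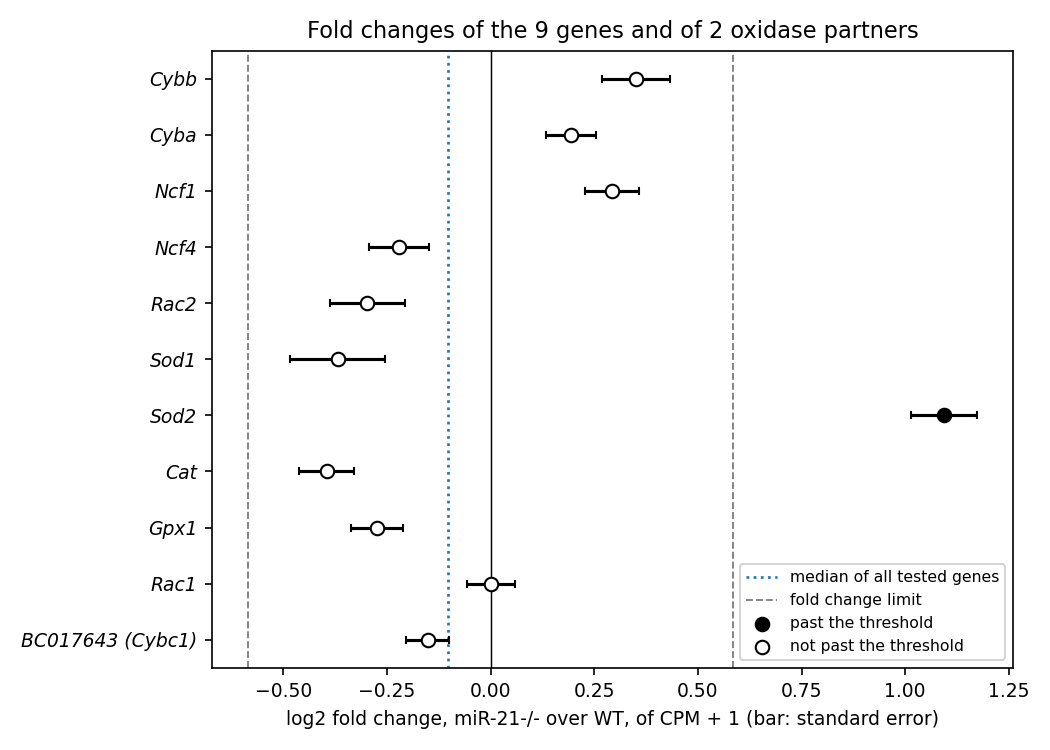
Log2 fold change of CPM + 1, miR-21-/- over WT (horizontal axis), with its standard error, for the 9 genes and for Rac1 and BC017643 (Cybc1). Dashed lines mark the fold change limit and the dotted line the median of all tested genes (-0.10), and Sod2 alone lies past the threshold.

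In all, 7 of the 9 genes had groups that did not overlap, as did 35.1% of all tested genes. The median log2 fold change of the 9 genes was -0.22. The scaling of the libraries moved several of these values. With rescaling by the median of ratios, Ncf4 (-0.11, limma adjusted p = 0.306), Rac2 (-0.19, 0.154), Sod1 (-0.26, 0.105) and Gpx1 (-0.16, 0.0842) had an adjusted p above 0.05. With quantile normalization, Cybb (0.23, limma adjusted p = 0.0991), Cyba (0.15, 0.0753), Ncf4 (-0.18, 0.0850) and Sod1 (-0.29, 0.0719) did. Sod2, Ncf1 and Cat kept an adjusted p under 0.05 in both, and no gene of the 9 changed direction in any of 16 alternatives.

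**Figure D4:**
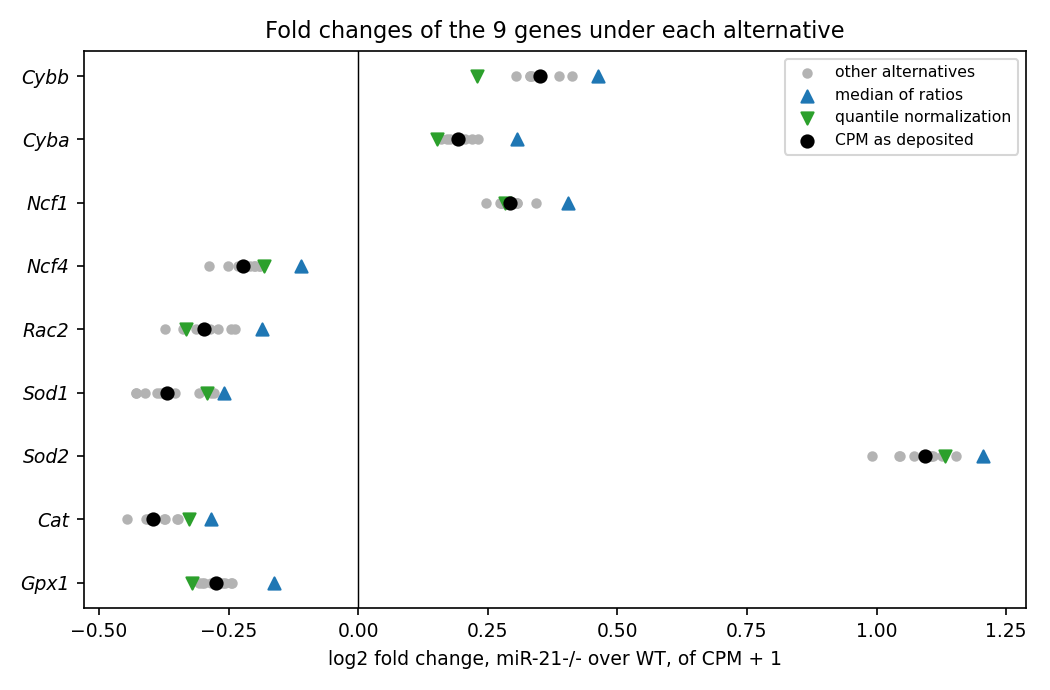
Log2 fold change of CPM + 1, miR-21-/- over WT (horizontal axis), of each of the 9 genes with the CPM as deposited (black), with rescaling by the median of ratios (triangles up), with quantile normalization (triangles down) and under the other alternatives (gray). Each gene stays on 1 side of zero, and Sod2 stays between 0.99 and 1.20.

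Levels of different genes were compared per kilobase of annotated exon. Cyba had the highest median, 282 CPM per kb in WT and 326 CPM per kb in miR-21-/- TAMs, followed by Gpx1 with 281 and 230 CPM per kb. In WT these 2 genes overlapped, with 264 to 306 CPM per kb for Cyba and 262 to 299 CPM per kb for Gpx1. Cybb had 174 CPM per kb in WT and 229 CPM per kb in miR-21-/- TAMs, where its range overlapped that of Gpx1. Rac2, Sod1 and Ncf4 had medians of 66.9 to 79.5 CPM per kb in WT and 55.3 to 64.2 CPM per kb in miR-21-/- TAMs, with ranges that overlapped from 1 gene to the next. Ncf1 lay below them in WT, at 47.1 CPM per kb (45.0 to 48.1), and among them in miR-21-/- TAMs, at 57.7 CPM per kb (51.8 to 63.2). Sod2 had the lowest median in WT, 10.2 CPM per kb against 28.7 CPM per kb for Cat. The Sod2 value rests on an exon length of 5977 bases, most of it the longest annotated 3′ UTR of 4963 bases. Whether shorter transcripts were used was not tested. In miR-21-/- TAMs, Sod2 (19.1 to 24.1 CPM per kb) and Cat (19.99 to 24.6 CPM per kb) overlapped.

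Sod2 was also compared with all other tested genes by its pattern over the 8 samples. By the root mean square difference of centered log2(CPM + 1) values, Lrrc8c (0.086) and Gdap10 (0.089) were among the 3 closest. Their means were 46.3 and 22.8 CPM in WT and 90.9 and 50.7 CPM in miR-21-/- TAMs. Mab21l3 (0.068) had means of 0.823 and 3.05 CPM, so it reached the filter only through miR-21-/- TAMs and its difference is compressed by the added 1, and it is not counted as alike. Nothing is read from the likeness beyond the pattern.

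Other genes of the same chemistry were taken from lists of general knowledge. Outside the 9 genes, 76 genes of these lists were tested, of which 8 were higher and 9 lower past the threshold, and their median log2 fold change was -0.06. Of all tested genes, 2.89% were higher and 4.23% lower. The split turned with the scaling, to 11 higher and 3 lower when rescaled by the median of ratios and to 9 higher and 4 lower under quantile normalization. That of all tested genes turned as well, to 520 higher and 350 lower and to 491 higher and 337 lower. The median of the 76 genes became 0.05 and -0.06, and that of all tested genes -0.003 and -0.008. Among the lower genes, Gpx8 and Hoxa9 had a mean under 1 CPM in miR-21-/- TAMs and reached the filter only through their WT values, so they are given as values. None of 11 other phagocyte oxidase genes passed. Prex1, an exchange factor for Rac, had the lowest value of that list (-0.19, standard error 0.05, limma adjusted p = 0.0206), with 270 to 296 CPM in WT and 236 to 263 CPM in miR-21-/-. Hvcn1, a proton channel that offsets the charge moved by the oxidase, had the highest (0.43, standard error 0.22, limma adjusted p = 0.157), with 10.4 to 17.1 CPM in WT TAMs and 12.6 to 29.1 CPM in miR-21-/- TAMs. Of 9 other NOX family genes, only Noxo1 was tested (0.91 to 1.58 CPM in WT TAMs and 0.50 to 1.25 CPM in miR-21-/- TAMs, limma adjusted p = 0.236). The catalytic relatives Nox1 and Nox4 did not exceed 0.167 CPM in any sample.

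Of 18 tested genes of other superoxide and peroxide removal, 5 rose and 2 fell, leaving Gpx8 aside, against 2.89% higher and 4.23% lower among all tested genes. Prdx1, a peroxiredoxin that reduces peroxide, rose from 310 to 350 CPM in WT to 463 to 787 CPM in miR-21-/- TAMs (log2 fold change 0.87, limma adjusted p = 0.000980). Prdx5, another peroxiredoxin, rose by 0.74 (128 to 146 CPM in WT TAMs and 202 to 257 CPM in miR-21-/- TAMs). Some genes of the thioredoxin system, which recharges peroxiredoxins, also rose. Txn1, thioredoxin, rose by 0.80 and Srxn1, sulfiredoxin, by 0.77, both without overlap. Txnrd1, the reductase of thioredoxin, named after its values were seen because it completes the count, rose by 0.65 (88.7 to 106 CPM in WT TAMs and 131 to 175 CPM in miR-21-/- TAMs). The limma adjusted p of these 5 genes lay between 0.000166 and 0.00130. Txn2 (-0.17, limma adjusted p = 0.0452) and Txnrd2 (-0.42, limma adjusted p = 0.00402), the mitochondrial forms of thioredoxin and its reductase, also named after their values were seen, did not pass.

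The genes that fell in that list were Gpx3 and Sesn1. Gpx3, a secreted glutathione peroxidase, had 6.89 to 12.02 CPM in WT TAMs and 1.83 to 2.57 CPM in miR-21-/- TAMs (log2 fold change -1.70, limma adjusted p = 5.09e-05). Sesn1, a sestrin, fell from 42.8 to 66.6 CPM to 26.9 to 29.2 CPM (-1.02). Gpx8, a peroxidase of the endoplasmic reticulum with at most 2.15 CPM, had a log2 fold change of -0.67 and kept its call in 4 of 15 alternatives. The sum of 6 fibroblast genes was also lower, at 60.7 to 137 CPM in WT and 10.1 to 44.1 CPM in miR-21-/- TAMs. Of the 5 tested, 3 were lower past the threshold, against 4.23% of all tested genes. The part of such cells in Gpx3 and Gpx8 was not tested.

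In the list of glutathione and NRF2 genes, 2 of 17 rose and 1 fell, against 2.89% higher and 4.23% lower among all tested genes. This became 4 and 0 when rescaled by the median of ratios, with Mgst1 (0.85, limma adjusted p = 0.00321) and Fth1 (0.66, limma adjusted p = 0.00190) past the threshold and Gsto1 not, and 3 and 0 under quantile normalization. Mgst1 and Fth1 are named after their values were seen. Glrx, the glutaredoxin of the cytosol, rose from 87.1 to 119 CPM to 278 to 387 CPM (log2 fold change 1.60, limma adjusted p = 1.63e-05). Slc7a11, the cystine importer that feeds glutathione synthesis, rose from 43.4 to 68.8 CPM to 128 to 187 CPM (1.55, limma adjusted p = 7.75e-05). Gsto1, a glutathione transferase, fell from 37.0 to 47.6 CPM to 24.0 to 32.0 CPM (-0.63). Of 12 genes that supply NADPH, the substrate of the oxidase and of glutathione reduction, none rose and 2 fell, and under either rescaling 1 fell. These were the mitochondrial enzymes Idh2 (49.1 to 62.3 CPM in WT TAMs and 28.1 to 33.5 CPM in miR-21-/- TAMs, log2 fold change -0.85) and Nnt (25.5 to 28.8 and 16.2 to 18.6 CPM, -0.61). The highest value of that list was that of Me2 (0.16, limma adjusted p = 0.167).

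Gpx1 is a selenoprotein, and of 8 genes of selenium transport and selenoprotein synthesis none rose and 1 fell, while 7.12% of all tested genes passed the threshold. This was Selenop, the selenium carrier of plasma, with 1022 to 1818 CPM in WT TAMs and 748 to 978 CPM in miR-21-/- TAMs (log2 fold change -0.79, limma adjusted p = 0.00477). Lrp8, a receptor for it, had the highest value (0.30, limma adjusted p = 0.180). Selenop kept this call in 5 of 16 alternatives.

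**Figure D5:**
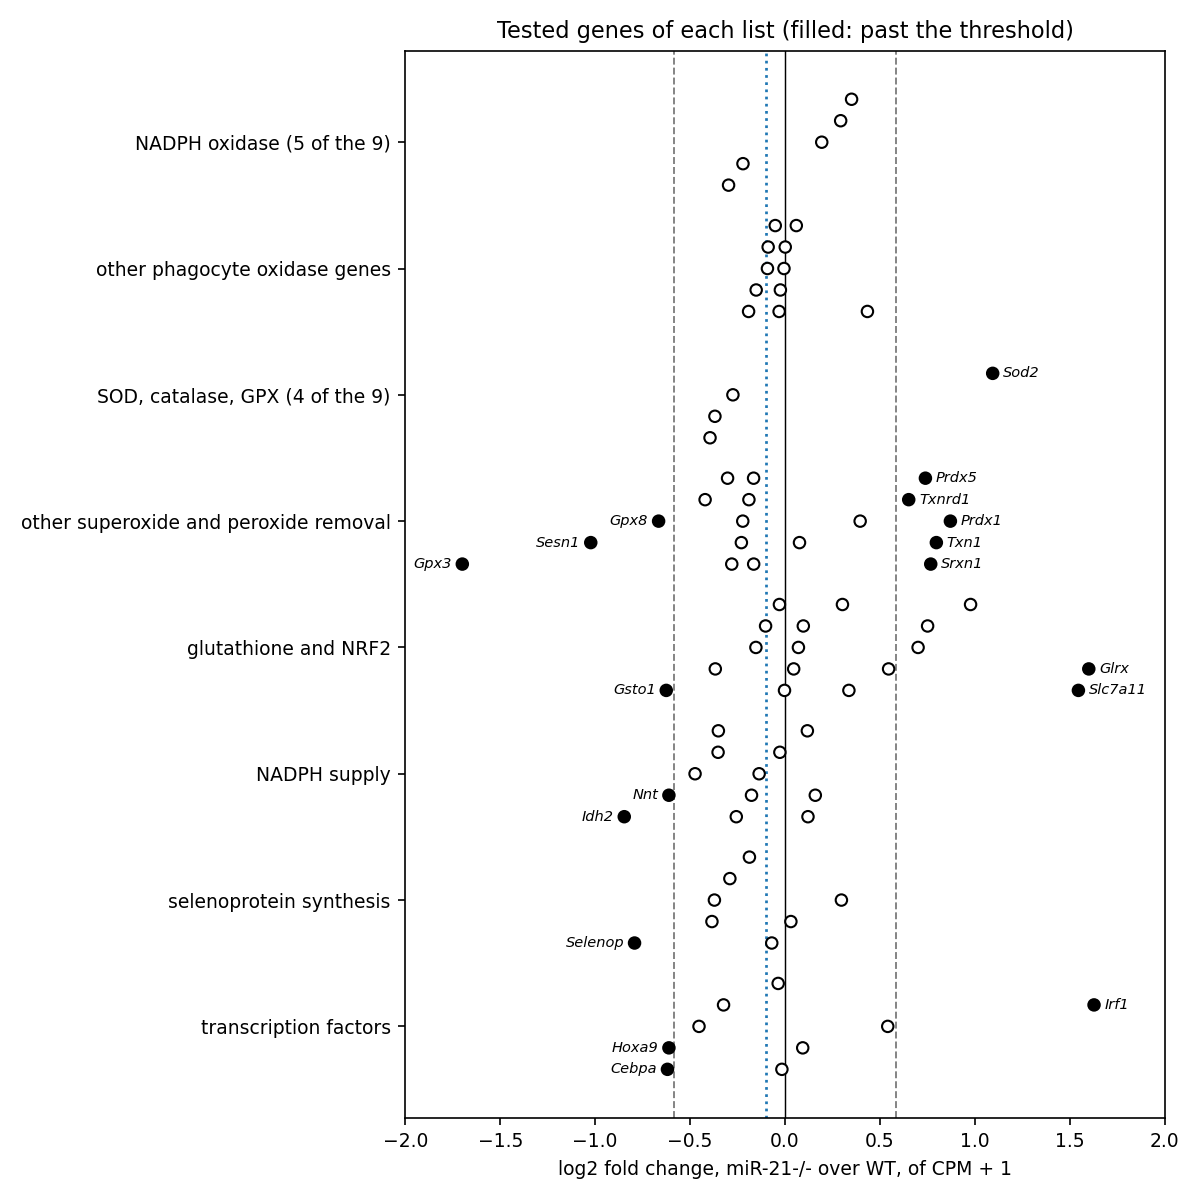
Log2 fold change of CPM + 1, miR-21-/- over WT (horizontal axis), of the tested genes in 8 lists, with genes past the threshold filled and named. Dashed lines mark the fold change limit and the dotted line the median of all tested genes, and the named genes to the right include Sod2 together with Prdx1, Prdx5, Txn1, Txnrd1 and Srxn1.

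Of 9 tested transcription factors reported on oxidase genes, 1 rose and 1 (Cebpa) fell, leaving Hoxa9 aside, against 2.89% higher and 4.23% lower among all tested genes. When rescaled by the median of ratios, Irf1 and Irf8 (0.65, limma adjusted p = 3.59e-05) passed and Cebpa did not. Irf1, induced by interferon, rose from 103 to 144 CPM in WT to 327 to 447 CPM in miR-21-/- TAMs (log2 fold change 1.63, limma adjusted p = 1.61e-05). Cebpa, a myeloid factor, had 59.1 to 82.5 CPM in WT TAMs and 41.4 to 50.5 CPM in miR-21-/- TAMs (-0.62), and Hoxa9 had at most 1.58 CPM (-0.61, call kept in 3 of 13 alternatives). Named after their values were seen, Irf8 had 160 to 188 and 252 to 267 CPM (0.54, under the fold change limit) at a locus that overlaps Gm20388, and Spi1, which encodes PU.1, had 246 to 264 and 238 to 254 CPM (-0.04, limma adjusted p = 0.606). The calls of Gpx8, Gsto1, Nnt, Cebpa and Hoxa9 were lost under quantile normalization and likewise under rescaling by the median of ratios.

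Since binding motifs of these factors are known, the promoters of the 3 genes with the lowest adjusted p among those higher in miR-21-/- TAMs are shown. They run from 250 bases before to 50 after the start site in RefSeq (GRCm38.p6), 5′ to 3′ along the gene. Windows were matched for 7 of the 9 genes. Capitals mark matches on either strand to GAGGAA (PU.1), GAAANNGAA (an interferon regulatory factor pair), TTCNNNGAA (the interferon-gamma motif called GAS) and GGANTTTCC (NF-kB).
Cybb, chrX:9469275-9469574, minus strand: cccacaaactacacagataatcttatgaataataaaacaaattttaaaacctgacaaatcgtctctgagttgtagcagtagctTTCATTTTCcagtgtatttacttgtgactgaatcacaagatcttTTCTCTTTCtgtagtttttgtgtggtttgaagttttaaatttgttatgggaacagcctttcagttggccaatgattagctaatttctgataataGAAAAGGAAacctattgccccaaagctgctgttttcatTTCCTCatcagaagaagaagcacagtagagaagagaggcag
Ncf1, chr5:134229576-134229875, minus strand: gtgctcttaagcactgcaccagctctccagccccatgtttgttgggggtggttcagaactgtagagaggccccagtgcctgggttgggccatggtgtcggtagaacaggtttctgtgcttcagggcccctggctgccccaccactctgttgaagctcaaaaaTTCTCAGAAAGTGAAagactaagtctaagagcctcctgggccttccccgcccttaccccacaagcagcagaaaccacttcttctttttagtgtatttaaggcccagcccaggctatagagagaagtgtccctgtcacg
Sod2, chr17:13007589-13007888, plus strand: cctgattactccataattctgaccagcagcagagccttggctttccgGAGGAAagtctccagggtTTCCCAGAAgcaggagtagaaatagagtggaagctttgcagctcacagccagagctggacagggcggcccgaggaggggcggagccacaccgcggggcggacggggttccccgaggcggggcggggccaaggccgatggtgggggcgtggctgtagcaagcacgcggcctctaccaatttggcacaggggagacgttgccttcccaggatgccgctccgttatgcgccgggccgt

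The Cybb window held 3 matches to the interferon regulatory factor pair and 1 to the PU.1 motif. The Ncf1 window held 1 pair and 1 GAS match, which overlap by 3 bases. In the Sod2 window there were 1 PU.1 and 1 GAS match, and no pair. Of 32851 RefSeq windows of this length, 28.3% held the PU.1 motif, 8.56% the pair, 8.30% GAS and 1.25% the NF-kB motif. None of the windows of Cyba, Sod1 and Gpx1 held any of these 4, and that of Cat held 1 PU.1 match. A match describes the letters of a window and not a bound site.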

How the data were processed

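The authors deposited 1 CPM value per gene and sample, each raised by 0.0001. Per the labels, STAR, Partek 7.0 and mm10 were used. Gene positions match GRCm38, and the counting rule and use of strand are not given in the sources used here. Depth was estimated from the steps of low values. Of the values up to 20 reads, 77.1% to 78.1% per sample lay within 0.1 of a whole read, so counts were not recovered and no count test was run.

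Log2(CPM + 1) was fitted with limma 3.58.1 in R 4.3.3 (eBayes with trend), over genes whose mean reached 1 CPM relative to the column totals, with Benjamini-Hochberg adjustment over all 13850. The limits of 0.005 and 1.5 are those of the study. On simulated data, 83.5% of 200 genes changed 2-fold were called, of 13850, and no unchanged gene was. The limma p-values set the difference between genotypes against the spread between the 4 samples of each genotype. For each gene that spread is drawn toward the spread of genes of similar level. Ratios were compared by exact permutation tests. Exon lengths and 3′ UTRs came from GENCODE vM21, and promoters and the miRNA from RefSeq. Figures used matplotlib 3.10.9. Alternatives were the pseudocount, the filter, 2 scalings, eBayes without trend, leaving out each sample, the replicate number as a block, and other limits.

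Named are the 9 genes, Rac1 and Cybc1, of each list the genes past the threshold (at most 4 per direction) with its highest and lowest, Mir21a and Vmp1, and the 3 genes nearest to Sod2 in pattern. Some genes that this rule selects are not reported here and were left out of the lists. The genes and lists were chosen with earlier results of these data known.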

Additional observations from a re-analysis of the deposited data

Results flagged for a closer look

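In 82 groups of 4 values, 3 had a sample far from the others by Dixon's test at 95%, which chance gives in about 1 of 20 groups. Ncf4 in miR-21-/- replicate 1 was 96.7 CPM, against 78.9 to 81.8 CPM in the other miR-21-/- samples. Cat in WT replicate 2 was 79.7 CPM, against 74.5 to 75.2 CPM. Srxn1 in WT replicate 4 was 22.4 CPM, against 28.1 to 28.4 CPM.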

How the results depend on the processing

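1 of the 9 genes (Sod2) passed the threshold in every refitted alternative. It was joined by Cat at an adjusted p of 0.005 without a fold limit (2 genes, 1 to 4 over the alternatives), and at 0.05 without a fold limit all 9 passed. At the limit of 0.05, 5 of the 9 passed after either rescaling or without a filter, 5 to 7 with a sample left out, 7 without the eBayes trend and 8 with the replicate block. Of the other pathway genes, 17 passed, 12 to 16 when each sample was left out, 11 with a pseudocount of 10, 10 without a filter on low values and 37 at 0.05 without a fold limit. Of these 17 genes, 9 kept the call in all 16 refitted alternatives (6 higher and 3 lower), and the other 8 (Prdx1, Srxn1, Gpx8, Gsto1, Nnt, Selenop, Cebpa and Hoxa9) lost it in at least 1. Of all tested genes, 986 passed, 684 to 1002 with a sample left out, 452 with a pseudocount of 10, 515 without a filter, 1982 at 0.005 and 4982 at 0.05 without a fold limit. The share of higher genes was 40.6%, but 59.3% under quantile normalization and 59.8% under rescaling by the median of ratios, which moved the median of all genes by 0.10. The cause was not tested.

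With a sample left out, the difference in log2 ratio was 1.32 to 1.54 for Sod2 to Sod1, 0.07 to 0.22 for Cybb to Cyba and 0.05 to 0.19 for Gpx1 to Cat. The miR-21-/- replicate numbers follow the order of the samples and not their titles, so a shared number pairs nothing by design. Samples of the same number did not deviate together (correlations -0.14 to 0.22), and of those that share a 3 or a 4 in their titles the correlations were 0.14 and 0.03. The replicate block was therefore kept out of the main fit. It is still counted among the refitted alternatives by which calls are said above to be kept or lost. With the replicate block, 1 of the 9 genes, 15 of the other pathway genes and 922 of all tested genes passed, and the paired exact p of the Sod2 to Sod1 ratio was 0.125, the smallest that 4 pairs allow. Genes of a few CPM are limited by depth.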
